A study of Homo sapiens with 4 samples.

Results

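Nuclear receptors are transcription factors that bind DNA in the nucleus, and many of them are switched on or off by a small fat-soluble ligand such as estrogen, cortisol, retinoic acid, vitamin D or a fatty acid. The genes of 46 human nuclear receptors were chosen by name, as members of the superfamily, and all 46 were found among the 23228 genes of the count tables. They were examined in ES2 cells, an established human ovarian cancer (OCa) cell line, that received vehicle or liquiritigenin (Liq) for 24 h, with 2 samples in each group. Liq is a plant flavanone that the study used as an agonist of estrogen receptor beta (ERβ), and its dose, which the study's methods give and the sample labels do not, was 100 µM. Cells of both groups were grown in RPMI-1640 without phenol red, a dye with weak estrogen activity, and with serum treated with dextran and charcoal, which removes steroid hormones. The comparison of Liq with vehicle asks how the expression of the receptors themselves, of genes they are known to control and of enzymes that make or break down their ligands differed after exposure to the ERβ agonist.

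The receptors fall into subfamilies by sequence. Steroid hormone receptors of subfamily NR3 bind DNA mostly as pairs of the same receptor. Receptors for retinoic acid, thyroid hormone, vitamin D, fatty acids and oxysterols (subfamily NR1) pair with a retinoid X receptor (RXR, subfamily NR2). Orphan receptors, such as the COUP-TF and NR4A proteins, act without a known hormone. Many receptors, though not all, read the DNA half-site AGGTCA or a close variant of it. For these, the spacing and orientation of a pair of half-sites sets which receptor pair fits. In ovarian cancer the estrogen receptors are studied most, because the ovary is both a source and a target of estrogens.

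Total RNA was sequenced, and reads were counted per gene. Counts on genes ranged from 34573053 to 48933893 per sample, so that 3 counts, the limit that a count of 0 allows, correspond to 0.0613 to 0.0868 CPM, the count scaled to the size of the library. Such limits cover counting error only. Reads that aligned to several places were not counted. Their tally line held 35.6% to 36.2% of all entries tallied, which need not be the share of reads. Counts of the vehicle pair differed by a chi-square of 6.33 per degree of freedom and those of the Liq pair by 11.1, against 58.4 to 71.4 between groups, so no library was a copy of another. The epithelial keratins KRT7 (252 CPM in vehicle) and KRT18 (198 CPM) and the mesenchymal filament gene VIM (7477 CPM) were abundant, and KRT7 rose by 0.51 with Liq while KRT18 fell by 0.24 and VIM by 0.28 on the log2 scale (adjusted p = 1.08e-05, 0.0132 and 0.000341). The keratin gene KRT8 did not pass the test (adjusted p = 0.318). By contrast, the epithelial genes EPCAM, KRT19 and MUC16 had at most 3 counts in any sample and CDH1 had 0. The ovarian lineage factors PAX8 and WT1 were low and fell with Liq, PAX8 by 1.34 and WT1 by 0.68 on the log2 scale (adjusted p-values of 0.00214 and 0.00285), and the part of these markers in the results on the receptors was not tested. The leukocyte genes PTPRC and CD3E had at most 1 count and the endothelial genes PECAM1 and VWF at most 10, while CD68, which many cell types transcribe, had 71.0 CPM with vehicle and 71.9 CPM with Liq. In bulk RNA, fewer cells that express a gene and less of its RNA per cell cannot be told apart.

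ES2 cells expressed most of the superfamily, although the receptor that Liq is used to target was close to the limit of detection. Of the 46 receptor genes, 34 had at least 10 counts in every sample, 3 were low and 9 had no more than 3 counts in any sample. Levels were compared between genes as CPM per kb of exon. On this scale 22 receptor genes reached 1 CPM per kb in the vehicle samples and 6 reached 10 CPM per kb, and 10334 of the 21039 genes that could be assigned a length reached 1 CPM per kb.

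The highest level belonged to NR2F2, which encodes the orphan receptor COUP-TFII, at 42.2 ± 0.682 CPM per kb in vehicle (SD, n = 2). This placed it at rank 1010 of the 21039 genes. PPARD, a fatty acid receptor, followed at 28.6 ± 0.498 CPM per kb and RXRB, a shared partner, at 23.7 ± 0.644 CPM per kb. The levels of these 3 genes did not overlap in the vehicle samples. ESRRA, an orphan relative of the estrogen receptors, NR2F6, an orphan of the COUP-TF group, and NR1D2, which encodes the heme-binding repressor REV-ERB beta, came next at 16.6, 13.3 and 11.1 CPM per kb. NR1H2, an oxysterol receptor, and NR3C1, the glucocorticoid receptor gene, could not be ordered, since their vehicle samples overlapped around means of 8.33 ± 0.655 and 8.05 ± 0.256 CPM per kb. In the Liq samples PPARD (35.4 CPM per kb, rank 1169) stood above NR2F2 (32.8 CPM per kb, rank 1279) in the group means, with the lower PPARD sample level with the higher NR2F2 sample.

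**Figure D1:**
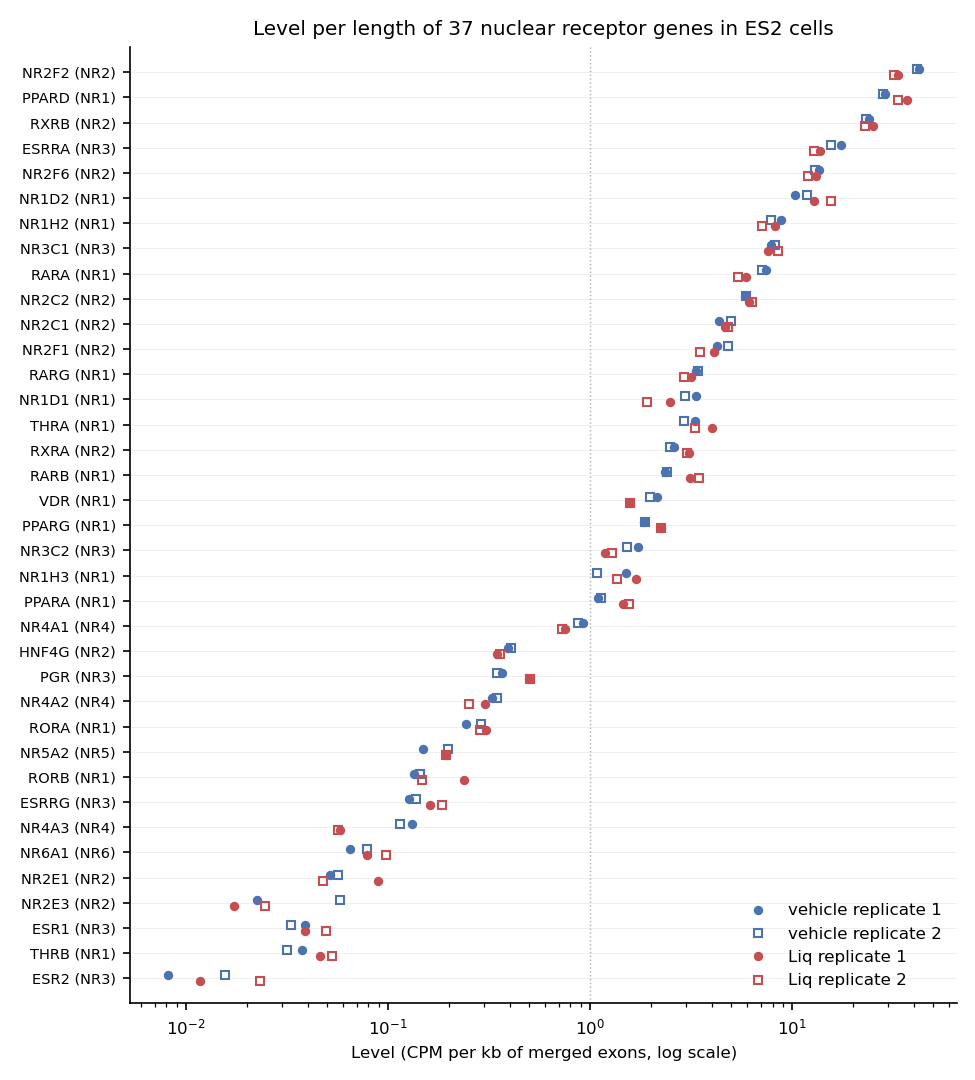
Level of the 37 receptor genes that had more than 3 counts in at least 1 sample, as CPM per kb of merged exons on a log axis, with 1 symbol for each of the 4 samples (blue, vehicle; red, Liq) and a dotted line at 1 CPM per kb. NR2F2 (42.2 CPM per kb in vehicle) is at the top and ESR2 (0.0119) at the bottom, and the spread over genes is far wider than the distance between samples of a gene.

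Expression of 3 receptor genes was not seen in any sample: HNF4A, a master factor of liver and gut, RXRG, the RXR of muscle and brain, and NR0B1, a repressor of steroid-making tissue. NR1H4, the bile acid receptor, had 0, 0, 0 and 2 counts in vehicle replicates 1 and 2 and Liq replicates 1 and 2. In the same order NR1I2, a xenobiotic sensor, had 1, 1, 0 and 0 counts, and NR1I3, its relative, had 0, 0, 0 and 1 count. NR5A1, which drives steroid synthesis in gonad and adrenal gland, had 1, 0, 0 and 0 counts, NR0B2, a liver corepressor, had 0, 0, 0 and 1 count, and ESRRB, a pluripotency factor, had 0, 0, 3 and 3 counts. All of these values lie at or under 3 counts, and differences between the groups were not detectable at this depth. The low class held NR2E1 (8, 8, 12 and 9 counts) and NR2E3 (3, 7, 2 and 4 counts), orphan receptors of the brain and the retina, besides ESR2. These 12 genes did not pass the filter on low counts and were not tested.

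Of the 34 receptor genes tested, 14 differed between Liq and vehicle at an adjusted p under 0.05, or 41.2%, against 24.0% of all 13546 genes tested. When vehicle replicate 1 was left out, the receptors did not pass more often than all genes. The 14 were divided evenly, with 7 higher and 7 lower in Liq, where 12.6% of all genes were higher and 11.3% lower. A change of at least 1.5-fold with an adjusted p under 0.05 was found for 1 receptor gene, NR4A3, which is lower in Liq; such changes covered 6.45% of all genes in either direction and 2.16% downward. The same gene was the only receptor called at 1.5-fold and an unadjusted p under 0.05, a rule that took in 7.85% of all genes. The other 13 changes were between 0.26 and 0.53 in size on the log2 scale. The samples of the 2 groups did not overlap in 25 of the 34 genes (73.5%), against 61.7% of all genes, nor in any of the 14. The 14 were chosen by p from these samples, so their gap is no separate support. The median log2 fold change was 0.05 over the tested receptors and 0.01 over all genes, and the median size was 0.30 and 0.16. Nothing in the labels says that samples came from separate cultures, so p-values measure only the spread between these samples, and for any single gene the smallest p of an exact permutation of 2 against 2 samples is 0.3333.

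**Figure D2:**
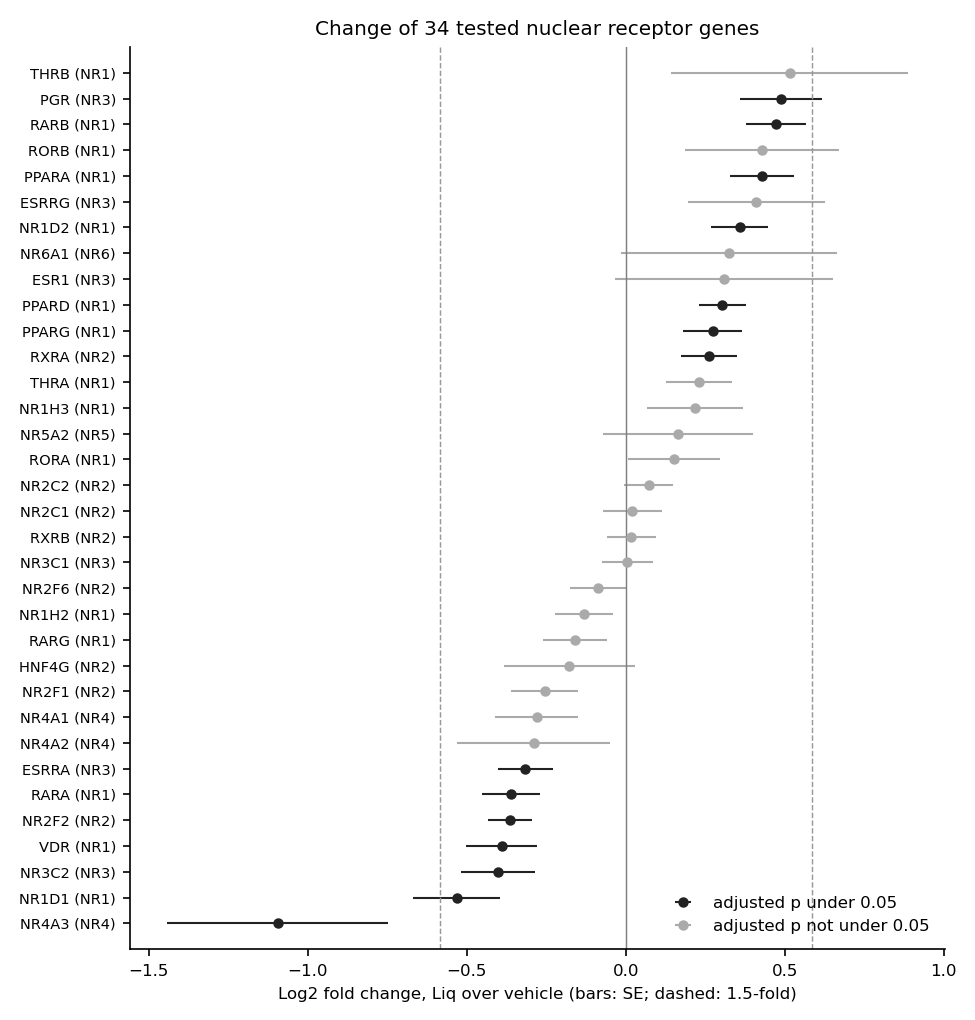
Log2 fold change of Liq over vehicle for the 34 tested receptor genes, with bars for the standard error (SE), in black where the adjusted p was under 0.05 and grey where it was not. Solid and dashed lines mark no change and 1.5-fold, and of the 14 black points only NR4A3 (-1.10) lies beyond 1.5-fold.

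Estrogen receptor genes were at the bottom of the measured range. ESR1, the gene of estrogen receptor alpha on chromosome 6 (151977826 to 152450754, GRCh37), received 22 and 17 reads with vehicle and 19 and 34 with Liq. This corresponds to 0.535 and 0.454 CPM against 0.534 and 0.677 CPM. The groups overlapped, and the log2 fold change of 0.31 ± 0.34 (SE) was within the replicate spread (adjusted p = 0.554). ESR2, the gene of ERβ on chromosome 14 (64550950 to 64804830), had 4 and 7 counts in vehicle and 5 and 14 in Liq. Its CPM was 0.0973 and 0.187 in vehicle and 0.141 and 0.279 in Liq, and the highest value came from Liq replicate 2, the deepest library. The ESR2 groups overlapped, and the gene did not pass the filter on low counts. Its exons share 523 bases (4.38%) with a noncoding RNA gene on the same strand, which was not counted under its name. Per length ESR1 ranked 13246 and ESR2 14031 of the 21039 genes in vehicle, at 0.0360 and 0.0119 CPM per kb.

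Estrogen-related receptors share the DNA-binding part of the estrogen receptors but bind no estrogen, and they control mitochondrial and energy genes. ESRRA, their main member here, stood at 54.2 and 48.5 CPM in vehicle and 42.8 and 39.8 CPM in Liq. Both Liq samples were below both vehicle samples, and ESRRA fell by 0.32 on the log2 scale (adjusted p = 0.00873, SE 0.09). Its exons share 284 bases, 9.16% of their length, with TRMT112 on the other strand, which had a log2 fold change of -0.05 (adjusted p = 0.659). ESRRG had 57 and 56 counts in vehicle and 63 and 102 in Liq, or 1.39, 1.5, 1.77 and 2.03 CPM, with both Liq samples higher. Its log2 fold change of 0.41 ± 0.22 did not pass the test (adjusted p = 0.171). Without vehicle replicate 1, the change of ESRRA no longer passed (adjusted p = 0.285).

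The progesterone receptor gene PGR, a classical estrogen target, was higher in Liq. PGR, on chromosome 11 (100900355 to 101000544), had 222 and 191 counts in vehicle and 262 and 370 in Liq, or 5.40 and 5.10 CPM against 7.37 and 7.37 CPM. Both Liq samples were well above both vehicle samples, and PGR rose by 0.49 ± 0.13 on the log2 scale, a 40.2% increase (adjusted p = 0.00693). Per length it remained a low gene, at 0.357 CPM per kb in vehicle and 0.502 in Liq. When vehicle replicate 2 was left out the adjusted p was 0.0838.

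Of the corticosteroid receptor genes, NR3C2 fell and NR3C1 did not pass the test. NR3C1, the glucocorticoid receptor gene, stood at 72.1 and 75.4 CPM in vehicle and 69.8 and 78.1 CPM in Liq. The Liq samples enclosed the vehicle samples, and the adjusted p was 0.970. NR3C2, which encodes the mineralocorticoid receptor for aldosterone, stood at 11.4 and 10.1 CPM in vehicle and 7.84 and 8.45 CPM in Liq. It fell by 0.40 on the log2 scale (adjusted p = 0.0132, SE 0.12), although not in the DESeq2 Wald test and not without vehicle replicate 1, with adjusted p-values up to 0.235. The ratio of NR3C2 to NR3C1 counts within a sample was 0.159 and 0.134 in vehicle and 0.112 and 0.108 in Liq. Its log2 difference of -0.40 between the groups repeats the fall of NR3C2 and adds no separate support.

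At 1.5-fold, known targets of the estrogen receptors were called at about the background share. The list held 25 such genes, of which 18 were tested, and 1 was called at 1.5-fold and an adjusted p under 0.05, or 5.56%, against 6.45% of all genes. This was EGR3, an immediate-early transcription factor, which stood at 1.39 and 1.58 CPM in vehicle and 0.365 and 0.179 CPM in Liq and fell by 2.50 on the log2 scale (adjusted p = 4.52e-06, SE 0.34). At any fold 5 of the 18 genes rose and 4 fell, which are larger shares than the 12.6% and 11.3% of all genes. The genes that rose were PGR, the carbonic anhydrase gene CA12, the protease gene CTSD, MYBL1 and CELSR2, and those that fell were EGR3, SERPINA1, STC2 and RARA. The median log2 fold change was 0.13 over the 18 genes. This list and those below were written with earlier results of these data known, so their shares are descriptive and show no enrichment. GREB1, a growth regulator induced by estrogen, had 6 and 7 counts in vehicle and 9 and 15 in Liq (adjusted p = 0.330). TFF1, the estrogen target most used in breast cancer cells, had 0 counts in every sample, and PDZK1 had 1, 3, 3 and 2 counts.

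Known targets of the glucocorticoid receptor also moved in both directions. Of 20 listed genes, 16 were tested, and 3 were called at 1.5-fold and an adjusted p under 0.05 (18.8%, against 6.45% of all genes). CRISPLD2, which encodes a secreted anti-inflammatory protein, rose from 6.52 and 6.81 CPM to 18.0 and 17.7 CPM, a log2 fold change of 1.42 ± 0.11 (adjusted p = 2.71e-10). The stress gene DDIT4 rose by 0.63 ± 0.09 (adjusted p = 1.69e-05), and by 0.52 without vehicle replicate 2 and 0.58 without Liq replicate 1, both under 1.5-fold. SGK1, a kinase that controls sodium channels, fell from 191 and 205 CPM to 96.0 and 98.4 CPM, by 1.03 on the log2 scale (adjusted p = 5.33e-11, SE 0.07). DUSP1, ERRFI1 and NFKBIA fell by less than 1.5-fold. TSC22D3 and FKBP5, the targets most often used as readouts of the receptor, had log2 fold changes of 0.07 and 0.04 (adjusted p-values of 0.668 and 0.757). Over the 16 genes the median log2 fold change was -0.05.

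Retinoic acid receptors (RARs) moved in opposite directions. RARB, on chromosome 3 (24729378 to 25639423), stood at 22.1 and 22.7 CPM in vehicle and 29.6 and 32.5 CPM in Liq. Both Liq samples were higher, and RARB rose by 0.47 ± 0.09 on the log2 scale, or by 38.8% (adjusted p = 0.000534). RARA, on chromosome 17 (38465432 to 38513895), stood at 35.2 and 33.6 CPM in vehicle and 27.9 and 25.7 CPM in Liq. It fell by 0.36 on the log2 scale (adjusted p = 0.00474, SE 0.09), with both Liq samples lower. The exons of RARA share 556 bases (11.7%) with RARA-AS1 on the other strand, which was not counted under its name. RARG stood at 17.1 and 17.5 CPM in vehicle and 16.1 and 14.9 CPM in Liq and did not pass the test (log2 fold change -0.16, adjusted p = 0.261). RARB was under an adjusted p of 0.05 in all 11 alternative fits, while RARA was not without vehicle replicate 1 (adjusted p = 0.113).

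The RARB promoter carries the textbook retinoic acid response element, a direct repeat of half-sites, and it is printed here because RARB was the receptor with the clearest rise. The stretch lies 59 to 31 bases before a RefSeq transcription start, at chr3:25428204-25428232 (GRCh38.p14, plus strand). All 29 of its bases also lie within an annotated exon of RARB. The half-sites are in capitals with 5 bases between them.
RARB: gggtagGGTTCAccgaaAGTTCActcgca
The motif was searched as any pair of half-sites in the same direction at a distance of 5 bases, on both strands of the 250 bases before each start, after the expression values had been seen. Accepted half-sites were the consensus AGGTCA, the left form GGTTCA of this element, its right form AGTTCA, and the variant GGGTCA. Half-sites of other forms were not searched. RefSeq windows existed for 41 of the 46 receptor genes, 96 in all. Since the left and right forms were taken from the RARB element, the match in RARB was fixed by the search and is no finding; the other receptor windows held no such repeat. Direct repeats at distances of 1 to 4 bases and an inverted repeat at 3 bases were also searched and were in 0 of the 96 windows, whereas single half-sites were in 38.5% of receptor windows and 33.8% of all 35116 windows. A match is a description of the letters and does not show that a receptor was bound there.

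Counts of RARB relative to RARA were higher in Liq. Within a sample the ratio was 0.629 and 0.676 in vehicle and 1.06 and 1.26 in Liq, so RARA had more reads in both vehicle samples and RARB in both Liq samples. This order holds for raw counts only: per kb of exon RARA stayed above RARB, at 7.25 against 2.37 CPM per kb in vehicle and 5.65 against 3.29 CPM per kb in Liq. On the log2 scale the ratio of counts was 0.83 higher in Liq, which restates the rise of RARB and the fall of RARA.

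**Figure D3:**
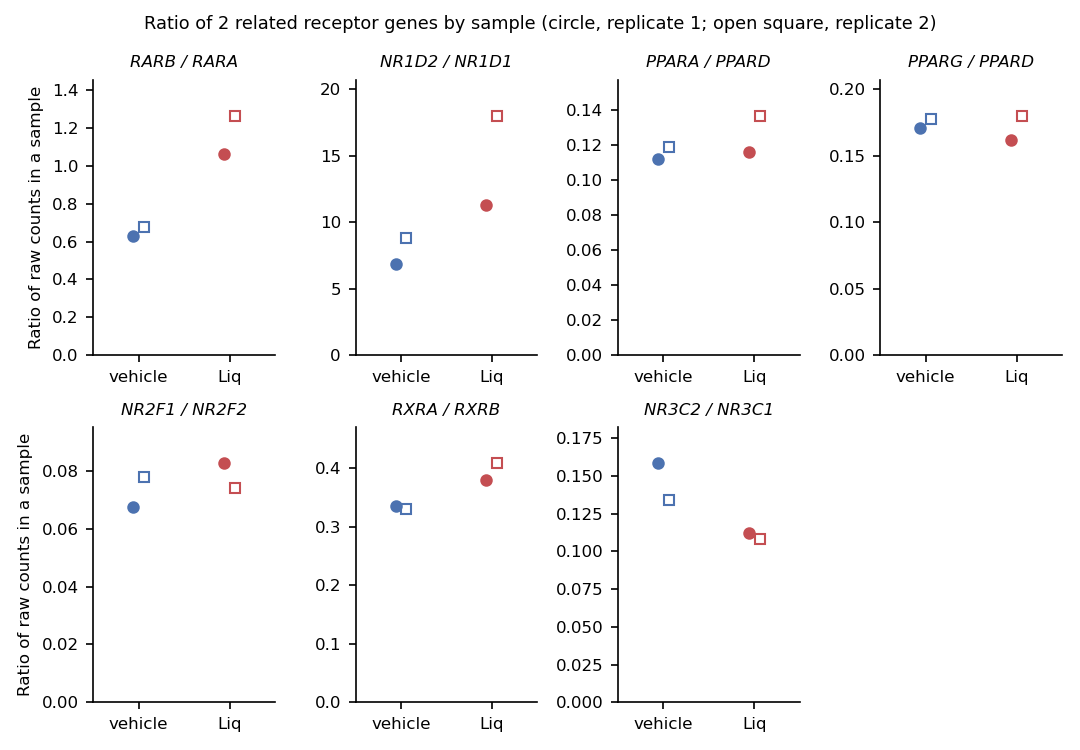
Ratio of the raw counts of 2 related receptor genes within each sample, for all 7 pairs computed, with vehicle in blue and Liq in red (circles, replicate 1; squares, replicate 2) and every axis starting at 0. The groups do not overlap in 4 pairs (RARB over RARA, NR1D2 over NR1D1, RXRA over RXRB, NR3C2 over NR3C1) and overlap in the other 3 (PPARA and PPARG over PPARD, NR2F1 over NR2F2). A gap is bound to appear where 1 gene rose and the other fell without overlap, and no share over other gene pairs was computed.

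Most listed targets of the retinoic acid, vitamin D and thyroid hormone receptors did not pass the filter on low counts. Of 20 genes 8 were tested, and 3 of the 8 were called at 1.5-fold, all upward (37.5%, against 6.45% of all genes in either direction). RARRES1, a retinoid-induced gene, rose from 4.69 and 4.03 CPM to 11.7 and 12.7 CPM, a log2 fold change of 1.49 ± 0.13 (adjusted p = 1.53e-09). DHRS3, which turns retinal back to retinol, rose by 0.86 ± 0.12 (adjusted p = 6.04e-06). RARRES3 had 34, 16, 38 and 62 counts and rose by 0.87 ± 0.30 (adjusted p = 0.0377). That call was lost under loess normalization, in the DESeq2 Wald test, without vehicle replicate 2 and without Liq replicate 2 (adjusted p = 0.137, 0.235, 0.443 and 0.136), which left 2 called genes in the list. The transglutaminase gene TGM2, the only listed gene that fell and named after its values were seen, fell by 0.40 on the log2 scale (adjusted p = 1.32e-05). CYP26A1 and CYP26B1, the retinoic acid hydroxylases that mark strong retinoid signaling, had at most 1 count in any sample, and over the 8 genes the median was -0.05 on the log2 scale.

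The peroxisome proliferator-activated receptors (PPARs), which sense fatty acids, rose together. PPARD stood at 129 and 126 CPM in vehicle and 165 and 150 CPM in Liq and rose by 0.30 ± 0.07 on the log2 scale (adjusted p = 0.00366). PPARA, the regulator of fatty acid oxidation, stood at 14.5 and 15 CPM in vehicle and 19.1 and 20.5 CPM in Liq and rose by 0.43 ± 0.10 (adjusted p = 0.00248). PPARG, the regulator of fat storage, stood at 22.1 and 22.4 CPM in vehicle and 26.8 and 27.0 CPM in Liq and rose by 0.27 ± 0.09 (adjusted p = 0.0315). In all 3 genes both Liq samples were above both vehicle samples. The ratios of PPARA and PPARG to PPARD overlapped between the groups. No call of a PPAR survived the loss of vehicle replicate 1, where the adjusted p of PPARA was 0.0591, and those of PPARD and PPARG were also lost without vehicle replicate 2. The PPARG call was lost as well under loess normalization and in the DESeq2 Wald test, and the highest adjusted p over the alternatives was 0.102 for PPARD and 0.258 for PPARG.

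Targets of the PPARs, the liver X receptors (LXRs) and the xenobiotic receptors changed upward where they changed. Of 31 listed genes, 15 were tested, 7 rose at any fold and 0 fell, where 12.6% of all genes rose and 11.3% fell, and the median log2 fold change was 0.22. Among them 3 passed 1.5-fold (20.0%, against 6.45% of all genes). SCD, the desaturase that makes monounsaturated fatty acids, rose from 494 and 495 CPM to 960 and 1007 CPM (log2 fold change 0.99 ± 0.06, adjusted p = 2.99e-12). CPT1A, which carries fatty acids into mitochondria, rose by 0.76 ± 0.12 (adjusted p = 2.24e-05). PDK4, a brake on glucose oxidation, had 43 and 45 counts in vehicle and 87 and 104 in Liq and rose by 1.00 ± 0.22 (adjusted p = 0.0017). ACADVL, LPCAT3, PLIN2 and SREBF1 rose by less than 1.5-fold. ABCA1, the LXR target that exports cholesterol, and ANGPTL4, a PPAR target, had log2 fold changes of -0.13 and -0.26 and did not pass the test (adjusted p-values of 0.402 and 0.556).

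Circadian repressors of the REV-ERB pair moved apart. NR1D1, on chromosome 17 (38249046 to 38256842), stood at 8.78 and 7.80 CPM in vehicle and 6.58 and 5.02 CPM in Liq. It fell by 0.53 on the log2 scale (adjusted p = 0.00577, SE 0.14). NR1D2, on chromosome 3 (23986777 to 24022108), stood at 59.9 and 68.8 CPM in vehicle and 74.4 and 90.3 CPM in Liq and rose by 0.36 ± 0.09 (adjusted p = 0.00479). Samples of the groups did not overlap for either gene, and Liq replicate 2 was the extreme sample in both. The NR1D2 to NR1D1 count ratio was 6.83 and 8.82 in vehicle and 11.3 and 18.0 in Liq, which restates these 2 changes. Both calls were lost without vehicle replicate 1 and without Liq replicate 2, with adjusted p-values up to 0.089 for NR1D1 and 0.196 for NR1D2.

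NR1D1 shares its 3′ end with the thyroid hormone receptor gene THRA on the other strand. The exons overlap by 473 bases, which are 18.0% of the NR1D1 exons and 6.45% of the THRA exons, and whether the counting used strand is not given in the sources used here. THRA stood at 24.3 and 21.4 CPM in vehicle and 29.5 and 24.4 CPM in Liq, with a log2 fold change of 0.23 ± 0.10 that did not pass the test (adjusted p = 0.105), except with the replicate block and without Liq replicate 2. Reads from the shared stretch cannot be told apart without strand. THRB, the other thyroid hormone receptor gene, had 17 and 13 counts in vehicle and 18 and 29 in Liq (log2 fold change 0.52 ± 0.37, adjusted p = 0.336).

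The clock factors CLOCK and BMAL1 bind the E-box CACGTG, and the NR1D2 promoter holds a pair of such boxes, printed here because NR1D2 was the highest REV-ERB and rose. The stretch lies 170 to 85 bases before a RefSeq start, at chr3:23945951-23946036 (GRCh38.p14, plus strand), with the boxes in capitals and 44 bases between them.
NR1D2: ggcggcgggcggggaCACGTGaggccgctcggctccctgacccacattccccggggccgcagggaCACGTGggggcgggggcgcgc
The box was present in 6 of the 96 receptor windows (6.25%) and in 6.34% of all windows, so the receptors held it at about the background share. The other receptor genes with a box were ESR2, NR2C1, NR2F2 and NR5A1.

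VDR, the vitamin D receptor gene, was lower in Liq. It stood at 12.1 and 11.3 CPM in vehicle and 8.97 and 8.92 CPM in Liq, and fell by 0.39 on the log2 scale (adjusted p = 0.0117, SE 0.11). Both Liq samples were below both vehicle samples, but without vehicle replicate 1 the adjusted p was 0.174. CYP24A1, the vitamin D hydroxylase that VDR induces, had 31 and 36 counts in vehicle and 29 and 30 in Liq (adjusted p = 0.510).

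The remaining tested NR1 receptors did not pass the test. The LXR genes NR1H2 and NR1H3 had log2 fold changes of -0.13 and 0.22 (adjusted p-values of 0.317 and 0.309), and the groups overlapped in both. NR1H2 shares 1182 exon bases (22.1%) with NAPSA on the other strand, which had 1 to 8 counts. RORA and RORB, activators that compete with the REV-ERBs, had log2 fold changes of 0.15 and 0.43 (adjusted p-values of 0.481 and 0.206). NR1H2 passed without Liq replicate 1 (adjusted p = 0.0422) and RORB without Liq replicate 2 (adjusted p = 0.0204). In all, 15 of the 18 NR1 genes were tested. At an adjusted p under 0.05 and any fold, 5 rose and 3 fell, where 12.6% of all genes rose and 11.3% fell.

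**Figure D4:**
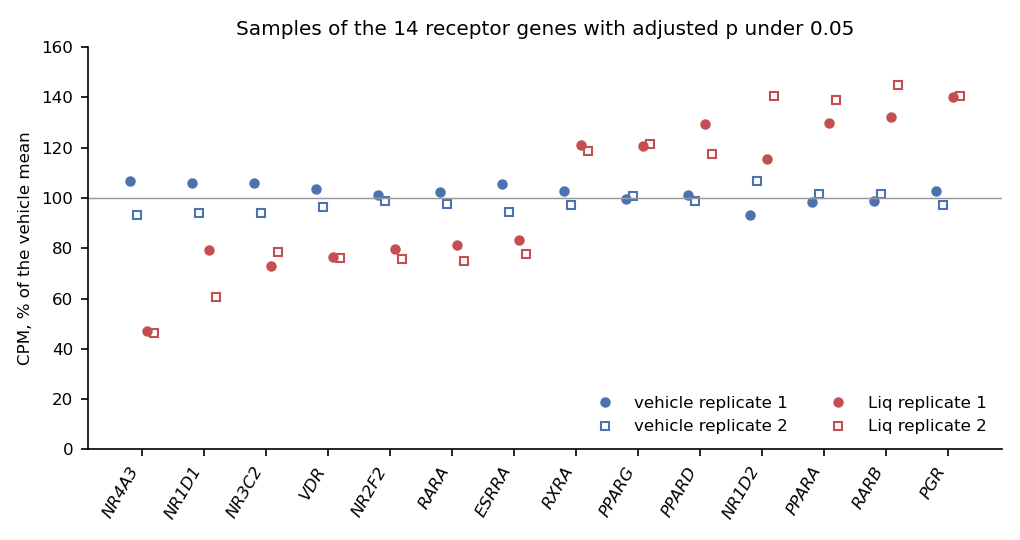
CPM in each of the 4 samples as a percent of the vehicle mean for the 14 receptor genes with an adjusted p under 0.05 (blue, vehicle; red, Liq; circles, replicate 1; squares, replicate 2). The genes run from NR4A3, the lowest relative to vehicle, to PGR, which is 40.2% higher in the fit. In each gene both red symbols lie on the same side of both blue ones. Since the genes were chosen by p from these samples, this gap is no separate support.

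RXRs are the shared partners of many NR1 receptors, among them the RARs, PPARs, LXRs and VDR but not the REV-ERBs and RORs. RXRA stood at 31.5 and 29.9 CPM in vehicle and 37.2 and 36.5 CPM in Liq and rose by 0.26 ± 0.09 on the log2 scale (adjusted p = 0.0313). RXRB stood at 94.1 and 90.6 CPM in vehicle and 97.8 and 89.3 CPM in Liq, overlapped between the groups and did not pass the test (adjusted p = 0.892). The RXRA to RXRB count ratio was 0.335 and 0.330 in vehicle and 0.380 and 0.408 in Liq. RXRB shares 361 exon bases (9.26%) with SLC39A7 on the other strand. The RXRA call was lost without vehicle replicate 1, without vehicle replicate 2 and in the DESeq2 Wald test, with adjusted p-values up to 0.324.

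Among the orphan receptors of NR2, the most abundant was also the one that changed. NR2F2, on chromosome 15 (96869167 to 96883492), a regulator of stromal and vascular identity, stood at 276 and 270 CPM in vehicle and 218 and 207 CPM in Liq. Both Liq samples were far below both vehicle samples, and NR2F2 fell by 0.36 on the log2 scale (SE 0.07), or to 0.777 of its vehicle level (adjusted p = 0.000286). It had the smallest adjusted p of the 34 tested receptors and passed in all 11 alternative fits. NR2F1, which encodes the paralogue COUP-TFI, stood at 18.7 and 21.0 CPM in vehicle and 18.0 and 15.3 CPM in Liq and did not pass (log2 fold change -0.26, adjusted p = 0.0785). Without Liq replicate 1 it passed (adjusted p = 0.00695). The NR2F1 to NR2F2 ratio overlapped between the groups.

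The other NR2 genes tested, NR2F6, the testicular receptor genes NR2C1 and NR2C2 and the hepatic HNF4G, had log2 fold changes between -0.18 and 0.07 and adjusted p-values of at least 0.526. The exons of NR2C2 share 7157 bases (60.5%) with MRPS25 on the other strand, so its level is uncertain. Of 12 NR2 genes, 8 were tested. At an adjusted p under 0.05 and any fold, 1 rose and 1 fell, about the share of all genes (12.6% rose and 11.3% fell).

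The NR4A receptors are immediate-early genes that need no ligand. NR4A3, on chromosome 9 (102584137 to 102629173), had 34 and 27 counts in vehicle and 13 and 18 in Liq, or 0.827 and 0.721 CPM against 0.365 and 0.359 CPM. Both Liq samples were below both vehicle samples, and NR4A3 fell by 1.10 on the log2 scale (adjusted p = 0.0221, SE 0.35), the widest change among the tested receptors and on few reads. The call was lost in each of the 4 fits that left out a sample and in the DESeq2 Wald test, with adjusted p-values up to 0.222. NR4A1, the most abundant of the 3, stood at 6.71 and 6.36 CPM in vehicle and 5.48 and 5.30 CPM in Liq, and NR4A2 at 1.34 and 1.42 CPM against 1.24 and 1.04 CPM. In both the Liq samples were lower, but the log2 fold changes of -0.28 and -0.29 did not pass the test (adjusted p-values of 0.123 and 0.415).

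Of subfamilies NR5 and NR6, NR5A2 and NR6A1 were tested. NR5A2, a regulator of steroid and bile acid synthesis, stood at 1.12 and 1.5 CPM in vehicle and 1.46 and 1.45 CPM in Liq, and the groups overlapped (adjusted p = 0.662). NR6A1, the germ cell nuclear factor, had 19 and 21 counts in vehicle and 20 and 35 in Liq, or 0.462, 0.561, 0.562 and 0.697 CPM (adjusted p = 0.527).

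Enzymes that supply or remove receptor ligands changed in both directions. Of 40 listed enzymes and carriers, 24 were tested, 4 were called at 1.5-fold (16.7%, against 6.45% of all genes), 6 rose and 3 fell at any fold, where 12.6% of all genes rose and 11.3% fell, and the median log2 fold change was 0.17. AKR1C3, which reduces steroid ketones, rose from 4.33 and 3.04 CPM to 6.30 and 7.43 CPM (log2 fold change 0.90 ± 0.16, adjusted p = 0.000123). HSD17B8, which oxidizes estradiol, rose by 0.70 ± 0.13 (adjusted p = 0.000329). AKR1C1, which inactivates progesterone, had 22 and 20 counts in vehicle and 65 and 62 in Liq and rose by 1.48 ± 0.29 (adjusted p = 0.000511). AKR1C genes are near-identical copies, and reads that aligned to several places were not counted, so their levels are uncertain and may be too low. CYP1B1, which hydroxylates estradiol, had 33 and 29 counts in vehicle and 12 and 17 in Liq and fell by 1.22 on the log2 scale (adjusted p = 0.0122, SE 0.35). The CYP1B1 call was lost in the DESeq2 Wald test and without vehicle replicate 1, vehicle replicate 2 or Liq replicate 2 (adjusted p = 0.144, 0.116, 0.0795 and 0.0511), and CH25H and CYP11A1 were called besides in the last of these fits. By less than 1.5-fold RDH11, HSD17B4 and HSD17B11 rose, and ALDH1A3, which makes retinoic acid, and HSD17B10 fell. CYP19A1, the aromatase that makes estrogen, had 0 counts in every sample. Over the 5 lists, 78 of 132 distinct genes were tested, 11 were called higher and 3 lower, together 17.9% against 6.45% of all genes. Since the genes were listed with earlier results of these data known, the larger share is no evidence of enrichment.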

How the data were processed

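RNA from 2 vehicle and 2 Liq samples was sequenced from TruSeq libraries as 100-base single reads. Per the labels and the submitters' processing notes, the authors demultiplexed reads with bcl2fastq 2.17.1.14, aligned them to hg19 (GRCh37) with TopHat2 2.0.8b and deposited raw HTSeq counts per gene, neither normalized nor pooled. The 5 tally lines of each table were left out. Groups and replicate numbers came from the labels. The members, gene lists and tests were chosen with earlier results of these data known, and the lists were written from general knowledge. They covered targets of estrogen receptors, of the glucocorticoid receptor, of retinoic acid, vitamin D and thyroid hormone receptors and of PPAR, LXR and xenobiotic receptors, and ligand enzymes and carriers.

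Counts were analysed with edgeR 4.0.16 in R 4.3.3. filterByExpr (minimum count 10, minimum total 15) kept 13546 genes, which were normalized by TMM (factors 0.968 to 1.03) and compared with glmQLFit and glmQLFTest, with no replicate block, and Benjamini-Hochberg adjustment ran over all genes tested. The SE is the size of the log2 fold change divided by the square root of F. The biological coefficient of variation was 0.0575. The steps were run on simulated data with planted changes of more than 1.5-fold, which does not test the smaller changes of most receptors. CPM are TMM-normalized, and levels per kb used merged exons of GENCODE for GRCh37 for 21039 genes (90.6%), of which 2126 were matched by an older symbol. Promoters are RefSeq's. Values were given per sample for receptors with an adjusted p under 0.05, the highest of each subfamily and the estrogen, estrogen-related and progesterone receptors, and in each list for up to 5 genes called at 1.5-fold with the smallest p and for 13 genes chosen by name; other genes are named to account for a count, after their values were seen. Alternatives were DESeq2 1.42.0 size factors and Wald test, upper-quartile and loess (span 0.3) normalization, 2 other filters, the replicate block, each sample left out, a fold change of at least 2, the length of the longest transcript or none, and other limits of detection.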

Additional observations from a re-analysis of the deposited data

How the results depend on the processing

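Of 374 fold changes of receptor genes under alternatives, 335 kept their direction and their side of the threshold. This includes genes that did not pass in the reported fit and stayed so. Of the genes that passed, only RARB and NR2F2 did so in all 11 alternative fits. The count of receptor genes with an adjusted p under 0.05, 14 in the reported fit, was 14 under DESeq2 size factors, upper-quartile or loess normalization and both other filters, and 10 in the DESeq2 Wald test, where NR3C2, NR4A3, PPARG and RXRA were lost. Under loess NR4A1 took the place of PPARG. Of all genes tested, 24.0% passed in the reported fit, 19.8% to 24.2% under these normalizations and filters, and 17.6% in the Wald test. Leaving out 1 sample gave 3 to 15, from 2 to 8 higher and from 1 to 8 lower: 3 without vehicle replicate 1, where NR2F2, RARB and PGR remained, 9 without vehicle replicate 2, 15 without Liq replicate 1 and 13 without Liq replicate 2. In these fits 1 group had a lone sample, assumed to vary like the other group. The replicate numbers share only a label (correlation of the deviations of same-numbered samples 0.0403), and with them as a block 15 receptor genes passed, THRA being added, as did 35.4% of all genes; the block changed the call of no other receptor gene. The receptor genes called at 1.5-fold and an adjusted p under 0.05, 1 in the reported fit, were 2 under loess and 0 in the DESeq2 Wald test, and 0 to 1 without a sample; at an unadjusted p they were 2, 0 and 1 to 2. At the adjusted p these were other genes, since NR4A3 was lost whenever 1 sample was left out: NR1D1 was called without vehicle replicate 2 or Liq replicate 1, RORB without Liq replicate 2, and NR1D1 besides NR4A3 under loess. In the lists, RARRES3, DDIT4 and CYP1B1 were the called genes lost in some fits, which left 2 of 3 called for retinoid and glucocorticoid targets and 3 to 5 for ligand enzymes. Without 1 sample, the log2 fold changes near 0 ranged across 0: from -0.0493 to 0.0826 for RXRB, from -0.0765 to 0.121 for NR2C1, from -0.0805 to 0.0822 for NR3C1 and from -0.0374 to 0.380 for NR5A2, which was -0.0323 under loess. With at least 10 counts required in every sample, 0 estrogen receptor targets were called at 1.5-fold, since EGR3 was then not tested. Defining undetected as 0 counts in every sample left 3 such receptor genes. Depth limits ESR1, ESR2, NR4A3 and the other genes with few counts.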
